A study of Homo sapiens with 4 samples.

Results

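The core pluripotency transcription factors described here are 7 genes chosen by name: POU5F1, SOX2, NANOG, SALL4, ZFP42, PRDM14 and UTF1. They were found by gene ID among the 27685 gene IDs of each library, each on 1 row, and all 7 were among the 13938 tested genes, those averaging at least 1 TPM (transcripts per 1000000). RNA was sequenced from NCC-IT-A3, a human embryonal carcinoma cell line. Cells of 1 group (2 libraries) had received 100 nM barasertib, which inhibits the mitotic kinase Aurora B, over 4 days. Cells of the other group (2 libraries) had received DMSO, the solvent control, over the same 4 days. All cells grew in RPMI medium with serum. No genetic change is named for either group. The labels do not state whether replicate libraries were separate cultures, and every p-value therefore rests on a spread between libraries that may be technical only.

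Pluripotency is the capacity of early embryonic cells to form all germ layers, and embryonal carcinoma is the malignant counterpart of such cells. OCT4 (the product of POU5F1) and SOX2 bind side by side to a composite DNA element in many regulatory regions, and with NANOG they sustain their own genes and a shared set of targets. SALL4 and PRDM14 act in this circuit largely as zinc finger factors that recruit repressor complexes, while ZFP42 (REX1) and UTF1 are known as downstream genes that mark the undifferentiated state.

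Promoters are shown because OCT4 and SOX2 act through short motifs. Of the 7 members, 4 matched the RefSeq promoter table (GRCh38.p14): SOX2, NANOG, ZFP42 and UTF1. POU5F1, SALL4 and PRDM14 had no entry. Each line gives the 250 bases before the annotated start, 5′ to 3′ on the gene's strand, and all 4 genes lie on the plus strand. Capitals mark the motifs searched on both strands: the octamer ATGCAAAT, the SOX motif CATTGT, the composite OCT-SOX element, in which the SOX motif is followed by 1 base of any kind and ATGCAAA, and the GC box GGGCGG.
NANOG, chr12:7789152-7789401: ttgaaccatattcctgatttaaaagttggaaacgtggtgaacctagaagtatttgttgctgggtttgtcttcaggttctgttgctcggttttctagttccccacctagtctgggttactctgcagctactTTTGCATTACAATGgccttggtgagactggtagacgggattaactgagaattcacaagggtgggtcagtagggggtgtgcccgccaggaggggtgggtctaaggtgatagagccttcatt
SOX2, chr3:181711675-181711924: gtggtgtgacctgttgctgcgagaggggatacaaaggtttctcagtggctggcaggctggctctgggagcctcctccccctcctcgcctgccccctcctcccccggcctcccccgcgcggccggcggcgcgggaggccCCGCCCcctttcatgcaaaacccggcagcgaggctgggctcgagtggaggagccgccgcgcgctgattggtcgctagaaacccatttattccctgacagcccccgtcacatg
UTF1, chr10:133229967-133230216: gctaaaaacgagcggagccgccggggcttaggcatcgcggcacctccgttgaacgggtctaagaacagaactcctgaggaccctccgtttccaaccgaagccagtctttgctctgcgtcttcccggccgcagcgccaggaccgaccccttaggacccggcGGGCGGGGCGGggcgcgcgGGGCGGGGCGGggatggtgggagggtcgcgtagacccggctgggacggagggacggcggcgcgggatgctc
ZFP42, chr4:187995521-187995770: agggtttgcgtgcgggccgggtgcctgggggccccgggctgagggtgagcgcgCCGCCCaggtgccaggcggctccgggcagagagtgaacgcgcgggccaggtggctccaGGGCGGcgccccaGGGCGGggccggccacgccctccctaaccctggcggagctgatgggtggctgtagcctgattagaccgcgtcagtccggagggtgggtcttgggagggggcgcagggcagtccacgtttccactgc

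The NANOG window held the composite element as its reverse complement, TTTGCATTACAATG, from -120 to -107 relative to the start. Of 35116 promoters of this length, 2 held the composite element (0.00570%). The other one belonged to NRARP, a feedback regulator of Notch signalling named here for its motif, which stood at 3.80 and 2.94 TPM with DMSO and at 18.1 and 14.0 TPM with barasertib (log2 change 1.96, limma adjusted p = 0.00100). The SOX motif occurred in 9.29% and the octamer in 1.63% of all promoters, and the octamer was in none of the 4 windows shown. GC boxes, found in 42.6% of all promoters, occurred 4 times before UTF1 (in 2 pairs, each sharing a base), 3 times before ZFP42 and once before SOX2. NANOG also had the lowest GC content of the 4 windows, at 47.6% against 68.8% for SOX2, 70.8% for UTF1 and 74.4% for ZFP42, with a median of 58.0% over all promoters. A match describes letters in a window and is not a measured binding site.

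The values are in TPM, a level scaled by transcript length and library so that genes can be set beside each other. The size of a gap between genes still depends on the measure. With DMSO the order was POU5F1 (3616 ± 130.1 TPM), SOX2 (451 ± 6.96), PRDM14 (306 ± 2.65), NANOG (163 ± 6.26), SALL4 (101 ± 0.121), UTF1 (59.6 ± 11.6) and ZFP42 (42.2 ± 0.908), each as mean ± SD of n = 2 libraries. No neighbours in this order overlapped between their libraries. With barasertib the order was the same except that UTF1 (122 ± 7.43 TPM) stood above SALL4 (98.1 ± 2.71 TPM). POU5F1 was the 34th most abundant of the tested genes with DMSO and the 19th with barasertib. The members were abundant genes: by their mean over the 4 libraries they lay between the 72.9th percentile (ZFP42) and the 99.8th percentile (POU5F1) of tested genes. Depth over the members, as the deposited mean coverage per base, ran from 74.5 for ZFP42 in the first DMSO library to 4089 for POU5F1 in the first barasertib library. In this coverage POU5F1 was at 3526 and 3516 and SOX2 at 843 and 866 with DMSO, a smaller ratio than in TPM.

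**Figure D1:**
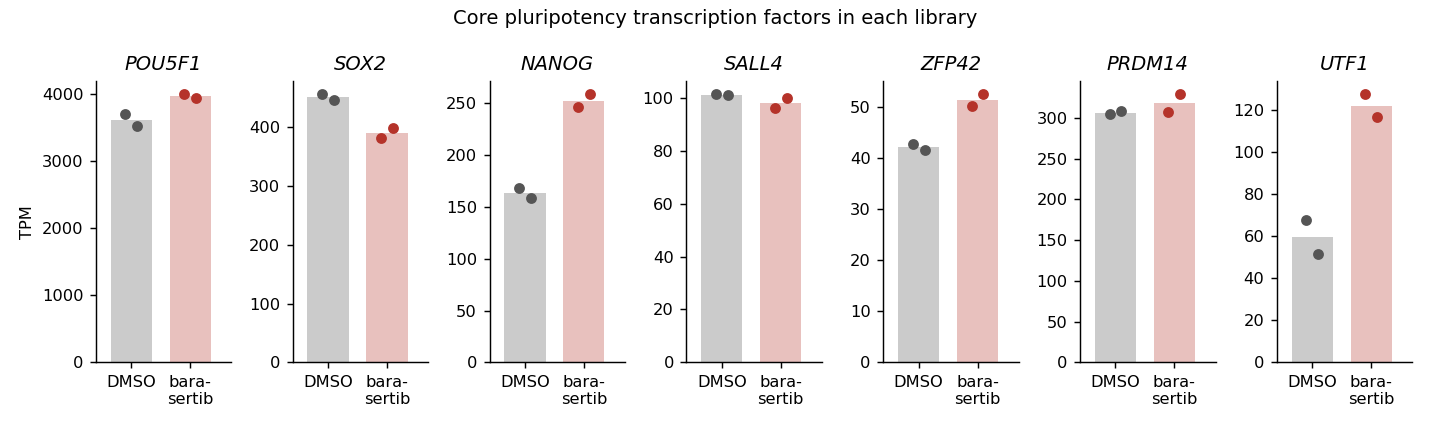
TPM of each member (vertical axis, linear from 0, a separate scale per gene) in the 2 DMSO and 2 barasertib libraries; points are libraries and bars are group means. NANOG and UTF1 stood higher in both barasertib libraries, SOX2 stood lower, and the PRDM14 points of the groups overlapped.

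Of the 7 members 5 passed the test, in both directions, where 29.5% of all tested genes passed. UTF1 and NANOG rose by 2.05-fold and 1.54-fold, ZFP42 by 1.21-fold and POU5F1 by 1.10-fold, and SOX2 fell to 0.864 of its DMSO level; folds are taken on the log2(TPM + 1) scale, on which limma was run, with p-values adjusted over the whole tested set (Benjamini-Hochberg). SALL4 and PRDM14 did not pass. In counts, 4 members rose, where 22.0% of all tested genes rose, and 1 fell, where 7.44% fell. Over all members the median log2 change was 0.14, beside 0.11 over all tested genes. Libraries of the 2 groups did not overlap for 6 members, which also held for 68.8% of tested genes. Scaling matters for changes of this size: dividing each library by its median-of-ratios factor, or quantile normalisation, put the median change over the tested genes at -0.01 on the log2 scale in both cases. Of the members 2 then rose and 2 fell after the former and 3 and 1 after the latter, and of all tested genes 1534 rose and 1891 fell, and 1653 and 1591, where 3071 and 1037 did in TPM. Under TPM and both other scalings, NANOG and UTF1 rose and SOX2 fell, 2 and 1 of 7 members, beside 10.0% and 7.05% of tested genes in the same directions. In these bulk samples fewer cells of a type and less RNA per cell cannot be told apart.

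NANOG, a homeodomain factor that holds cells in the undifferentiated state, lies on chromosome 12 from 7941992 to 7948657 in the hg19 coordinates of the files, plus strand (gene ID 79923). Its TPM was 168 and 159 with DMSO and 246 and 258 with barasertib. Both barasertib libraries stood above both DMSO libraries, and the gap between groups was wider than the gap within either. The log2 change was 0.62 ± 0.05 (SE; limma adjusted p = 0.00103). Under the 15 alternative settings NANOG passed every time, with log2 changes of 0.49 to 0.66.

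UTF1, a chromatin-associated protein of undifferentiated embryonic cells, lies on chromosome 10 from 135043778 to 135045062, plus strand (gene ID 8433). It stood at 67.7 and 51.4 TPM with DMSO and at 127 and 117 TPM with barasertib. The DMSO libraries differed from each other by more, in relative terms, than for any other member, yet both lay well under the barasertib pair. Its log2 change of 1.03 ± 0.13 (SE; limma adjusted p = 0.00324) was the largest of the 7. UTF1 also passed under all 15 alternatives, with log2 changes of 0.84 without the second DMSO library to 1.23 without the first.

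SOX2, the HMG-box partner of OCT4, lies on chromosome 3 from 181429712 to 181432223, plus strand (gene ID 6657). It was the member that fell, from 456 and 446 TPM with DMSO to 381 and 398 TPM with barasertib, and the groups did not overlap. The log2 change was -0.21 ± 0.04 (SE; limma adjusted p = 0.0143), and -0.35 and -0.28 after median-of-ratios scaling and quantile normalisation. The call was lost without the first barasertib library (log2 change -0.18, limma adjusted p = 0.0644) or the first DMSO library (-0.19, limma adjusted p = 0.0608). SOX2 lies within the row of the long non-coding RNA gene SOX2-OT on the same strand, so reads of the 2 genes may not be fully separable. SOX2-OT was at 106 and 108 TPM with DMSO and at 110 and 127 TPM with barasertib, and did not pass (log2 change 0.14, limma adjusted p = 0.216).

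POU5F1, which encodes OCT4, lies on chromosome 6 from 31132114 to 31138470, minus strand (gene ID 5460). Its TPM was 3708 and 3524 with DMSO and 3999 and 3949 with barasertib. The groups did not overlap, but the gap between the nearest libraries of the 2 groups was little wider than the gap between the DMSO libraries. The rise of 0.14 ± 0.03 on the log2 scale (SE; limma adjusted p = 0.0296) lay near the median of all tested genes, and relative to that median it was 0.03. After median-of-ratios scaling the log2 change was 0.00 (0.0015, limma adjusted p = 0.981) and after quantile normalisation 0.32 (limma adjusted p = 0.00180). Without the first or second barasertib library or the second DMSO library the call was lost (limma adjusted p of 0.120, 0.0910 and 0.129). POU5F1 has near-identical copies that can share its reads: POU5F1P3 was at 81.0 and 68.4 TPM with DMSO and at 68.3 and 71.9 TPM with barasertib (limma adjusted p = 0.496), and 3 further copies were between 0 and 3.90 TPM.

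ZFP42, the zinc finger gene for REX1, lies on chromosome 4 from 188916925 to 188926203, plus strand (gene ID 132625). It stood at 42.8 and 41.5 TPM with DMSO and at 50.2 and 52.5 TPM with barasertib, with no overlap. The log2 change was 0.28 ± 0.06 (SE; limma adjusted p = 0.0192). This call was lost when any 1 of the 4 libraries was left out (limma adjusted p of 0.0519 to 0.0803), after median-of-ratios scaling (log2 change 0.15, limma adjusted p = 0.127) and after quantile normalisation (0.19, limma adjusted p = 0.0658).

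The zinc finger factors SALL4 and PRDM14 did not pass the test in TPM. SALL4, a partner of the NuRD repressor complex, lies on chromosome 20 from 50399256 to 50419062, minus strand (gene ID 57167). It was at 101.2 and 101.0 TPM with DMSO and at 96.2 and 100.0 TPM with barasertib, a log2 change of -0.04 with a 95% interval of -0.17 to 0.08 (limma adjusted p = 0.539). After median-of-ratios scaling SALL4 fell, at a log2 change of -0.18 (limma adjusted p = 0.0452). PRDM14, which represses differentiation genes, lies on chromosome 8 from 70963886 to 70983562, minus strand (gene ID 63978). It was at 304 and 308 TPM with DMSO and at 307 and 329 TPM with barasertib, and the groups overlapped. Its log2 change was 0.05 with a 95% interval of -0.06 to 0.17 (limma adjusted p = 0.431), and the sign turned under both other scalings (-0.08 and -0.01).

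**Figure D2:**
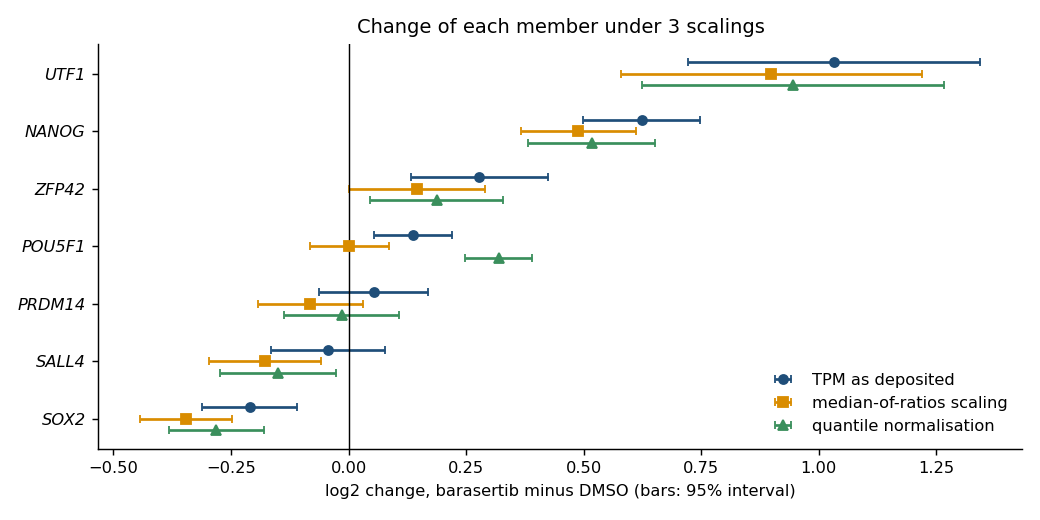
Log2 change of each member, barasertib minus DMSO (horizontal axis), in TPM as deposited and after 2 other scalings; points are limma estimates and bars their 95% intervals. UTF1, NANOG and SOX2 kept their side of 0 under the 3 scalings, POU5F1 ranged from 0.00 to 0.32, and PRDM14 changed sign.

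A ratio of 2 members within a library does not change when the library is divided by 1 factor, so the proportions of the factors were compared directly. SOX2 was 2.72 and 2.80 times as abundant as NANOG with DMSO, and 1.55 and 1.54 times with barasertib. In TPM the ratio of POU5F1 to SOX2 was 8.14 and 7.90 with DMSO and 10.5 and 9.92 with barasertib. POU5F1 stood at 22.1 and 22.2 times NANOG with DMSO and at 16.3 and 15.3 times with barasertib. The POU5F1 transcript thus gained on SOX2 and lost against NANOG in both barasertib libraries. Quantile normalisation, which is not such a division, does change these proportions: the log2 change of POU5F1 minus that of SOX2 went from 0.35 to 0.60, and that of POU5F1 minus NANOG from -0.49 to -0.20. It turned the sign for 1 of the 21 pairs of members, POU5F1 minus ZFP42 (-0.14 in TPM and 0.13 after quantile normalisation). The widest shift was between UTF1 and SOX2: relative to SOX2, UTF1 moved by 1.26 on the log2 scale. Of the 21 pairs, which share members, 20 had TPM ratios that did not overlap between the groups, which also held for 65.5% of all pairs of tested genes above 0 in every library, and the exception was POU5F1 over PRDM14 (12.2 and 11.4 with DMSO, 13.0 and 12.0 with barasertib). With 2 libraries against 2, an exact two-sided permutation test cannot go below p = 0.333, so these ratios are given as values only. Summed over the 7 members, the level was 4847 and 4630.2 TPM with DMSO and 5207 and 5203 TPM with barasertib. POU5F1 made up 76.3% ± 0.278 (SD, n = 2) of that sum with DMSO and 76.3% ± 0.645 with barasertib, while SOX2 went from 9.51% ± 0.161 to 7.48% ± 0.231 and NANOG from 3.45% ± 0.0207 to 4.85% ± 0.172. In the deposited coverage POU5F1 stood less far above the other members than in TPM, so the size of its ratios and share depends on the measure.

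**Figure D3:**
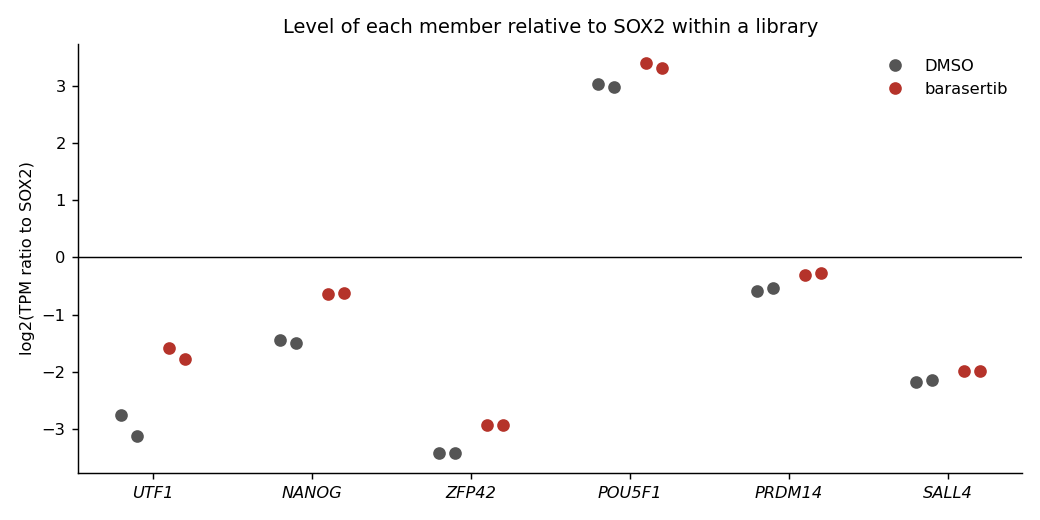
Log2 of the TPM ratio of each member to SOX2 (vertical axis) within each of the 4 libraries; points are libraries. Every other member stood higher relative to SOX2 in both barasertib libraries, from a shift of 0.17 for SALL4 to 1.26 for UTF1. SOX2 had the lowest log2 change of the members, so positive mean shifts of the others follow from its choice as reference. The log2 change of SOX2 was -0.32 relative to the median of all tested genes. A gene at that median thus gained on SOX2 too, by more than SALL4 and PRDM14 did.

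Genes whose values followed the members most closely were found by the Euclidean distance between log2(TPM + 1) profiles, centred over the 4 libraries, among 9044 genes averaging at least 10 TPM. For NANOG these were TOP2A (distance 0.03) and NCAPG (0.04), which encode topoisomerase II alpha and a condensin subunit of mitotic chromosomes. For UTF1 they were RASL11B (0.10) and GABBR1 (0.10), and for SOX2 the ribosomal protein gene RPS7 (0.01) and IGFBP7 (0.01). POU5F1 was closest to SPRED2 (0.01) and DCAF8 (0.01), ZFP42 to RFWD3 (0.01) and MRPL39 (0.01), SALL4 to HSD17B1-AS1 (0.01) and SUMO2 (0.01), and PRDM14 to CBL (0.01) and OGFOD1 (0.01). With 4 libraries in 2 groups, many genes have such profiles, and the distance describes these libraries only.

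Other transcription factors of the pluripotency network also moved both ways. This list and the lists below were chosen with earlier results of these data known, so their counts are descriptions only. Of 24, 20 were tested, 12 rose and 4 fell, with a median log2 change of 0.49 beside 0.11 over all tested genes, and 9 rose and 4 fell under all 3 scalings. Over all tested genes 22.0% rose and 7.44% fell, and 10.0% and 7.05% did so under all 3 scalings. DPPA4, a chromatin-associated factor of the early embryo, was at 90.4 and 188 TPM with DMSO and at 277 and 293 TPM with barasertib (log2 change 1.12, limma adjusted p = 0.0390, not called under all 3 scalings), and its paralog DPPA2 rose from 5.34 ± 0.0566 to 11.2 ± 0.949 TPM. FOXD3, a forkhead factor of pluripotent and neural crest cells, rose from 1.30 ± 0.383 to 3.60 ± 0.271 TPM, and the homeobox gene VENTX from 14.0 ± 0.804 to 28.6 ± 1.03 TPM. Among those that fell, named after their values were seen, were OTX2, KLF4 and KLF5, at log2 changes of -0.26, -0.25 and -0.28. Without the first barasertib library 6 rose and 1 fell; 1 fell also without the second barasertib or the first DMSO library.

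Genes known as targets of these factors changed in both directions as well. Of 25, 21 were tested, 11 rose and 2 fell, at a median log2 change of 0.30, and 9 and 2 did so under all 3 scalings. The shares over all tested genes were 22.0% and 7.44%, and 10.0% and 7.05% under all 3 scalings. SPP1, the matrix glycoprotein osteopontin, rose from 126 ± 0.0348 to 346 ± 3.05 TPM. GDF3, a TGF-beta family ligand, rose from 70.2 ± 3.07 to 168 ± 3.65 TPM, and DPPA3, a maternal factor that guards DNA methylation, from 88.1 ± 4.74 to 207 ± 7.31 TPM. FGF4, whose enhancer is a classical site of OCT4 and SOX2 binding, was at 13.8 and 12.8 TPM with DMSO and at 25.8 and 25.7 TPM with barasertib (log2 change 0.90, limma adjusted p = 0.00111; named after its values were seen). The 2 that fell were the epithelial cadherin gene CDH1, from 20.3 ± 0.411 to 7.33 ± 0.372 TPM, and CRIPTO, a Nodal co-receptor also named after its values were seen, from 606 ± 13.8 to 486 ± 39.6 TPM.

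Of 21 genes for co-repressor partners (NuRD, Polycomb and LSD1 complexes), 8 rose and 0 fell by limma, or 9 and 1 at an unadjusted p under 0.05. That balance turned with the scaling: 1 was higher and 3 were lower after median-of-ratios scaling, and 2 were higher and 3 lower with quantiles matched. The median log2 change in TPM was 0.13, beside 0.11 over all tested genes. Of the list 38.1% passed in TPM, where 29.5% of all tested genes passed (22.0% rose and 7.44% fell). Only GATAD2A, a NuRD subunit, rose under all 3 scalings, from 56.8 ± 0.0529 to 73.2 ± 3.32 TPM, and with any 1 library left out 3 or 4 of the 21 rose. The others named by size were EED, JARID2 (also counted among the targets) and WDR5, at log2 changes of 0.33, 0.30 and 0.27.

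The paralogs of the members were mostly low. Their counts stand beside 22.0% of all tested genes that rose and 7.44% that fell, or 10.0% and 7.05% under all 3 scalings. Among 18 SOX genes 11 were tested, 6 rose and 1 fell, 5 and 1 of them under all 3 scalings, at a median log2 change of 0.42. SOX21, the most abundant paralog and like SOX2 a gene of the SOXB group, fell from 242 ± 7.24 to 153 ± 5.48 TPM. SOX4 rose from 45.9 ± 1.94 to 86.0 ± 0.0392 TPM, SOX8 from 5.41 ± 0.738 to 10.1 ± 0.526 TPM and SOX18 from 0.619 ± 0.151 to 3.63 ± 0.0806 TPM. SOX3, the paralog closest to SOX2 (named after its values were seen), was at 8.25 and 9.22 TPM with DMSO and at 11.7 and 12.6 TPM with barasertib, a rise that passed in TPM (limma adjusted p = 0.0213) but not under all 3 scalings. Of 14 POU genes 7 were tested: POU2F3 (log2 change 1.39) and POU3F1 (0.70) rose, also under all 3 scalings, calls that were lost when either barasertib library was left out. POU2F1, the most abundant of them, reached 11.3 TPM at most and did not pass. Among 18 SALL, PRDM and YY genes 11 were tested, 4 rose and 0 fell by limma (5 and 0 at an unadjusted p under 0.05). By limma 36.4% of those tested passed, where 29.5% of all tested genes passed. SALL3 rose from 2.24 ± 0.0119 to 4.42 ± 0.126 TPM and SALL2 from 18.0 ± 0.236 to 26.2 ± 0.706 TPM, both under all 3 scalings. SALL1 (log2 change 0.38) and YY2 (0.61) passed in TPM but not under all 3; without the first barasertib library 1 gene of the list rose, and 2 without the second barasertib or second DMSO library. PRDM2 and YY1, the most abundant of their families, did not pass (limma adjusted p = 0.315 and 0.0721).

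**Figure D4:**
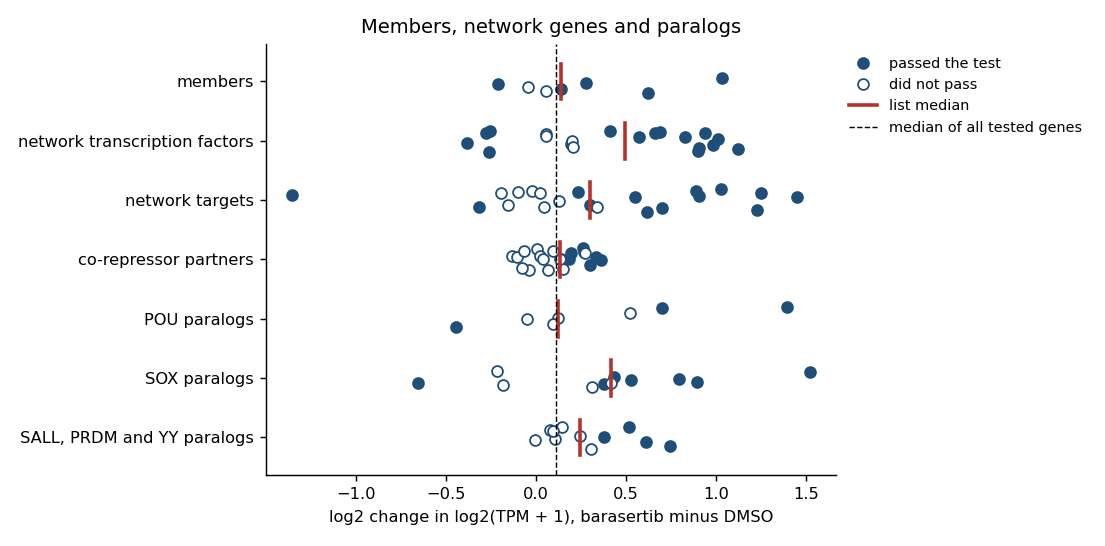
Log2 change, barasertib minus DMSO (horizontal axis), of every tested gene in the members and 6 related lists; filled points passed the test, red bars are list medians and the dashed line is the median of all tested genes. The network factors and targets spread widely in both directions, with medians of 0.49 and 0.30, while the co-repressor partners stayed between -0.14 and 0.36.

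The labelled cell type was checked on marker lists. Counts called in these lists stand beside 22.0% of all tested genes that rose and 7.44% that fell, or 10.0% and 7.05% under all 3 scalings. All 10 embryonal carcinoma markers were tested; LIN28A (441 to 533 TPM) and L1TD1 (700 to 760.2 TPM) were abundant in every library, while TNFRSF8, the CD30 antigen, was at 3.0 to 3.77 TPM. Of the 10, 6 rose, among them DNMT3B (241 ± 17.9 to 446 ± 18.4 TPM) and KRT8 (360.4 ± 9.11 to 570.1 ± 27.1 TPM). Under all 3 scalings 4 rose and 1 fell. PODXL, LIN28A, DNMT3B, L1TD1 and CDH1 were also counted among the targets, and DPPA4 among the network factors. The 1 that fell was CDH1, named above among the targets, and its change was the largest of the called genes in this list. Markers of other cell types moved beside the members' changes, several lists in 1 direction, and their part in the result was not tested. Under all 3 scalings 1 seminoma and germ cell marker, 2 mesoderm, 2 neuroectoderm and 2 trophoblast markers rose, and 1 trophoblast marker fell. Of the mesoderm markers 1 rose when a mean of at least 5 TPM was required. All 9 endoderm and yolk sac markers were under 1 TPM on average, with a sum of 0.785 to 0.855 TPM with DMSO and 1.60 to 2.63 TPM with barasertib. Fibroblast markers summed to 1.68 to 2.30 TPM with DMSO and 3.21 to 3.59 TPM with barasertib, and their 1 tested gene, COL3A1, did not pass (limma adjusted p = 0.484). Among seminoma and germ cell markers SOX17 was at 0 to 0.0464 TPM and PDPN rose, 1 of 4 tested. Their summed level was 208 to 209 TPM with DMSO and 275 to 277 TPM with barasertib. Mesoderm markers summed to 49.8 to 56.2 TPM and 62.6 to 67.4 TPM; TBXT, which defines early mesoderm, was at 0 in both DMSO libraries and at 0.334 TPM at most, and EOMES, KDR and MIXL1 rose, 3 of 4 tested (1 gene of the list rose without the first barasertib library and 1 without the second). Neuroectoderm markers summed to 210 to 214 TPM and 384 to 424 TPM: NES rose from 119 ± 2.94 to 285 ± 21.3 TPM, LHX2 and TUBB3 rose as well, 3 of 5 tested (1 gene of the list without the first barasertib library), and PAX6 was at 0.0372 TPM at most. Trophoblast markers summed to 309 to 309.9 TPM and 182 to 198 TPM, as TFAP2A fell from 306 ± 0.0447 to 177 ± 12.1 TPM, while the low genes GATA2 and PGF rose, 2 of 4 tested (1 without the second barasertib library), and KRT7 and ELF5 were at 0 in all libraries.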

How the data were processed

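RNA was sequenced in 2 barasertib and 2 DMSO libraries of NCC-IT-A3. The submitters' processing notes name HISAT2, StringTie and the build hg19; their versions, their options and the use of strand are not stated there. The labels' protocols name an mRNA library kit and its stranded guide. The deposited files give coverage (a signal, the mean depth per base), FPKM and TPM per gene row, as computed by the authors. Rows were summed per gene ID, and symbols came from RefSeq (GRCh38.p14, names only), which matched 27559 of 27685 IDs. The largest ratio of coverage to FPKM, which estimates aligned bases, was 4.59 and 4.52 Gb with barasertib and 4.22 and 4.43 Gb with DMSO; read numbers are unknown.

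Genes averaging at least 1 TPM were tested with limma 3.58.1 (R 4.3.3) on log2(TPM + 1), group as the only term, with a mean-variance trend, two-sided, at a Benjamini-Hochberg adjusted p of 0.05. Groups of 2 leave 2 residual degrees of freedom. On simulated data of 13938 genes with 200 changed (5 runs), the fit called 80.6% of genes changed 1.5-fold and 91.4% of those changed 2-fold, and 4.87% of calls were unchanged genes. The simulated spread depended only on a gene's level, and no shift in library scaling was drawn. These rates therefore describe the simulation and may not hold for the 4 libraries. The members and the 13 gene lists were chosen with earlier results of these data known. From each list, up to 4 called genes with the largest change were named, or the one of lowest p, plus the most abundant paralog. Not every called gene of the lists is reported here. Alternatives were filters, pseudocounts of 0.1 and 5, FPKM, 2 scalings, the trend, robust moderation, a replicate block, each library left out and, chosen after seeing the data, coverage in place of TPM. Python 3.11.15 and matplotlib 3.10.9 were used.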

Additional observations from a re-analysis of the deposited data

How the results depend on the processing

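With 2 libraries per group the precision is limited by their number. NANOG and UTF1 kept direction and call under all 15 alternatives, and no called member changed direction; PRDM14, not called, turned to -0.0812 (limma adjusted p = 0.244) and -0.0149 (limma adjusted p = 0.849) after median-of-ratios scaling and quantile normalisation. POU5F1 no longer passed after median-of-ratios scaling (0.0015), with no filter or no trend (0.14 each; limma adjusted p = 0.129 and 0.193) and with coverage in place of TPM (0.11, limma adjusted p = 0.0554). The SOX2 call was lost without the trend (-0.21, limma adjusted p = 0.0872). ZFP42 no longer passed after median-of-ratios scaling (0.15), quantile normalisation (0.19) and without the trend (0.28, limma adjusted p = 0.0522), and SALL4 gained a call after median-of-ratios scaling (-0.18). The cause was not tested. With 1 library left out, log2 changes were 0.10 to 0.17 for POU5F1, -0.24 to -0.18 for SOX2 and 0.25 to 0.31 for ZFP42. Over all genes, 3071 rose and 1037 fell; after median-of-ratios scaling 1534 and 1891, after quantile normalisation 1653 and 1591, without the trend 674 fell, and with 1 library left out 1365 to 2181 rose and 601 to 699 fell. A single library left in a group was assumed to vary like the other group. Same-numbered deviations correlated at r = 0.02, which gave no sign of pairing by replicate number. With 2 libraries per group this value cannot settle whether the samples were paired. With the replicate number as a block, 3218 rose and 1080 fell and no member's call changed (NANOG 0.62, limma adjusted p = 0.00177; POU5F1 0.14, limma adjusted p = 0.0294). Of 392 list counts over the planned settings, 347 stayed within 1.5 times and 45 did not.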

Other observations

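Among the network genes, PODXL, which encodes the surface sialomucin podocalyxin and carries antigens used to recognise pluripotent cells, differed more between replicates than between groups. It was at 320.1 and 326 TPM in the DMSO libraries and at 506 and 167 TPM in the barasertib libraries (limma adjusted p = 0.825). DPPA4 showed such a gap within DMSO, at 90.4 and 188 TPM, and its paralog DPPA2, at 5.30 and 5.38 TPM, did not. FOXD3, TFCP2L1 and NR5A2 rose (log2 changes 1.01, 0.57 and 0.83, TFCP2L1 and NR5A2 chosen with their values known), while ESRRB and KLF17, factors of the naive state in mouse and human, were at 0.207 and 0.227 TPM at most.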
